A study of Mus musculus with 10 samples.

Results

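The *Sox* genes encode transcription factors that bind DNA through a high-mobility-group (HMG) box, and 10 of them with known roles in neural cells were examined here: *Sox2*, *Sox3* and *Sox21* of the SoxB group, *Sox4* and *Sox11* of SoxC, *Sox5* and *Sox6* of SoxD, and *Sox8*, *Sox9* and *Sox10* of SoxE. They were chosen by name, out of 55450 genes (21951 of them protein-coding) in the GENCODE M21 basic annotation, with no threshold on a measured value. Earlier results of these data were known when they were chosen. For each gene, every peak at its promoter, in its body or within 50 kb of its ends was collected from 6 ChIP-seq peak lists. A promoter was the region within 2 kb of an annotated transcriptional start site (TSS).

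The lists came from oligodendrocytes differentiated in medium with the thyroid hormone T3 from neural stem cells (NSCs), and each is from 1 library. The *Qk*-/- libraries were precipitated with antibodies against RNA polymerase II (Pol II), Qki-5 (an isoform of the RNA-binding protein Qki that resides in the nucleus) or Srebp2 (the activator of sterol genes), and the WT libraries with the same antibodies. Cells of the Pol II and Qki-5 libraries were at passage 7, with 1 input library for each genotype, and those of the Srebp2 libraries were at passage 8, with inputs of their own. All cells were of an FvB/C57BL6 hybrid strain. According to the methods, NSCs were grown from whole brains of newborn *Nestin-CreERT2;Qk L/L* mice, in which Cre is driven by the *Nestin* promoter, and *Qk* was deleted in culture with 4-hydroxytamoxifen. How the WT cells were treated is not given in the sources used here. The names of Pol II and Qki-5 peaks start with mNSC, and Srebp2 peak names start with OL.

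SoxB1 proteins such as Sox2 and Sox3 keep neural progenitors undifferentiated, whereas Sox21, of the SoxB2 group, acts mainly as a repressor. Sox4 and Sox11 act in neuronal and glial precursors before maturation. Among the glial factors, Sox9 directs NSCs towards glia and stays on in astrocytes, Sox10 activates myelin genes in oligodendrocytes, Sox8 overlaps with both, and Sox5 and Sox6 modulate SoxE proteins in oligodendrocyte precursors.

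The *Qk*-/- Pol II list held 12835 peaks and the WT Pol II list 32280, with median widths of 606 and 596 bp. Qki-5 peaks numbered 427 in *Qk*-/- cells and 7539 in WT cells, and Srebp2 peaks numbered 28 in *Qk*-/- cells and 77 in WT cells. The text of the study counts more Qki-5 and Srebp2 peaks in such cells than these lists hold, and whether it refers to the same calls is not given in the sources used here, so a gene without a peak below is one without a peak in these lists. Read totals are not in the lists, so depth is unknown, and the fold enrichment of a peak over its input was compared only with other peaks of its own list, as a rank (1 is the strongest) or a percentile (100 is the strongest). Without replicates, the spread between cultures is unknown, and no test between genotypes was made. A peak list is a sum over the culture, in which fewer cells with an occupied promoter and lower occupancy in each cell cannot be told apart.

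Upstream sequence from RefSeq (build GRCm38.p6, which is mm10) matched 7 of the 10 genes: *Sox2*, *Sox4*, *Sox5*, *Sox6*, *Sox8*, *Sox11* and *Sox21*. The 250 bases before the RefSeq start are shown for 5 of them, all with Pol II peaks over part or all of the stretch in both genotypes. The *Sox2* and *Sox4* stretches also lay under a WT Qki-5 peak, over 103 and 247 bases, and those of *Sox21*, *Sox8* and *Sox11* lay under none. They span chr3:34649745-34649994 on the plus strand (*Sox2*), and, on the minus strand, chr13:28953700-28953949 (*Sox4*), chr14:118237031-118237280 (*Sox21*), chr17:25570687-25570936 (*Sox8*) and chr12:27342719-27342968 (*Sox11*). The RefSeq start lies 410 bp upstream of the GENCODE TSS used for distances at *Sox2* and 144 bp upstream at *Sox11*. Each reads 5′ to 3′ in the direction of transcription. Capitals mark ACAAAG or ACAATG, the core recognised by Sox proteins, CCAAT (the box bound by NF-Y), GGGCGG (the GC box bound by Sp1) and ACTAAC, the core of the RNA element bound by Qki, each on either strand, so that CCAAT on the other strand appears as ATTGG.
Sox2: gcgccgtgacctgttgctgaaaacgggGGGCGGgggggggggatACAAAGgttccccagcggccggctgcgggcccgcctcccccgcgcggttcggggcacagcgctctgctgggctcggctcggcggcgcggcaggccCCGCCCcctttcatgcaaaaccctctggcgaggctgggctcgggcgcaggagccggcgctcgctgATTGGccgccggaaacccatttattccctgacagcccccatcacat
Sox4: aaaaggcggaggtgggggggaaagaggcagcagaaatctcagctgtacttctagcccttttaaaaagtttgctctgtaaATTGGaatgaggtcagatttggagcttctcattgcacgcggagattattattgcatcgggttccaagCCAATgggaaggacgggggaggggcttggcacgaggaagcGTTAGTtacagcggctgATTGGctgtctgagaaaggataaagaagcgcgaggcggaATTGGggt
Sox21: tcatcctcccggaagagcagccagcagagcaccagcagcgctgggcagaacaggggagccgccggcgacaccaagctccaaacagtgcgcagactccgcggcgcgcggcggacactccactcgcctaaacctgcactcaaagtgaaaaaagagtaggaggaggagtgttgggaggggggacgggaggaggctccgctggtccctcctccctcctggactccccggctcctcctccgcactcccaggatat
Sox8: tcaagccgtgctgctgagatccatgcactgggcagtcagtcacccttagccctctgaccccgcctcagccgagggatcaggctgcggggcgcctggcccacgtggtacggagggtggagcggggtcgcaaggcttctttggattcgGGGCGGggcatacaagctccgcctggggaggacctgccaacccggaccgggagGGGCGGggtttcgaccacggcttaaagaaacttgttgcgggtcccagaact
Sox11: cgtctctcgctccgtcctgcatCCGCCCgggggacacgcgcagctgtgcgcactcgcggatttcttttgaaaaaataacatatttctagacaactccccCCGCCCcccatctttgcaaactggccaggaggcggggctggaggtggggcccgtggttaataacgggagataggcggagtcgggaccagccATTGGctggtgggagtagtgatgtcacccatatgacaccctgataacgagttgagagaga

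The *Sox4* stretch held 4 CCAAT boxes, and at least 4 were found in 0.840% of 32851 RefSeq upstream stretches of this length. It also held ACTAAC on the other strand (GTTAGT), a word present in 5.20% of all stretches. The *Sox2* stretch held 1 CCAAT box, 2 GC boxes and 1 ACAAAG, words present in 33.8%, 32.7% and 16.5% of all stretches, and ACAATG, present in 10.7%, was in none of the 5. *Sox11* had 1 CCAAT box and 2 GC boxes, *Sox8* had 2 GC boxes, and the *Sox21* stretch held none of the words. Not shown is a *Sox6* stretch (chr7:116031048-116031297) with all 250 bases under Pol II peaks in both genotypes, which held 1 ACAAAG and 4 GC boxes. Other stretches of *Sox5* and *Sox6* that are not shown held ACAATG. A match is a description of the sequence only. By base composition, GC content was 72.0% at *Sox2*, 50.8% at *Sox4*, 65.2% at *Sox21*, 65.6% at *Sox8* and 58.0% at *Sox11*, against a median of 52.4%.

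Pol II occupied most of the *Sox* promoters in both genotypes. Peaks were called at 8 of the 10 in *Qk*-/- cells, where 46.5% of protein-coding genes had one, and at the same 8 in WT cells, where 54.1% had one. These were *Sox2*, *Sox3*, *Sox21*, *Sox4*, *Sox11*, *Sox6*, *Sox8* and *Sox9*, and no peak was called at *Sox5* or *Sox10*. Of WT Pol II-bound promoters over all protein-coding genes, 14.3% had no Pol II peak in *Qk*-/- cells, against 0 of the 8 *Sox* promoters. With 8 promoters this count is near that share, and promoters of like WT strength were not compared.

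The occupied *Sox* promoters ranked high among Pol II peaks. Their strongest peaks had a median percentile of 93.9 (lowest 75.0, at *Sox8*) in the *Qk*-/- list, where the median of all 10215 bound protein-coding promoters was 62.7. In the WT list the median was 98.4 (lowest 78.2, at *Sox11*), against 82.9 for 11879 bound promoters. The strongest 10% of bound protein-coding promoters held 5 of the 8 in *Qk*-/- cells (*Sox2*, *Sox3*, *Sox21*, *Sox4* and *Sox9*) and 6 in WT cells, where *Sox8* was added.

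**Figure D1:**
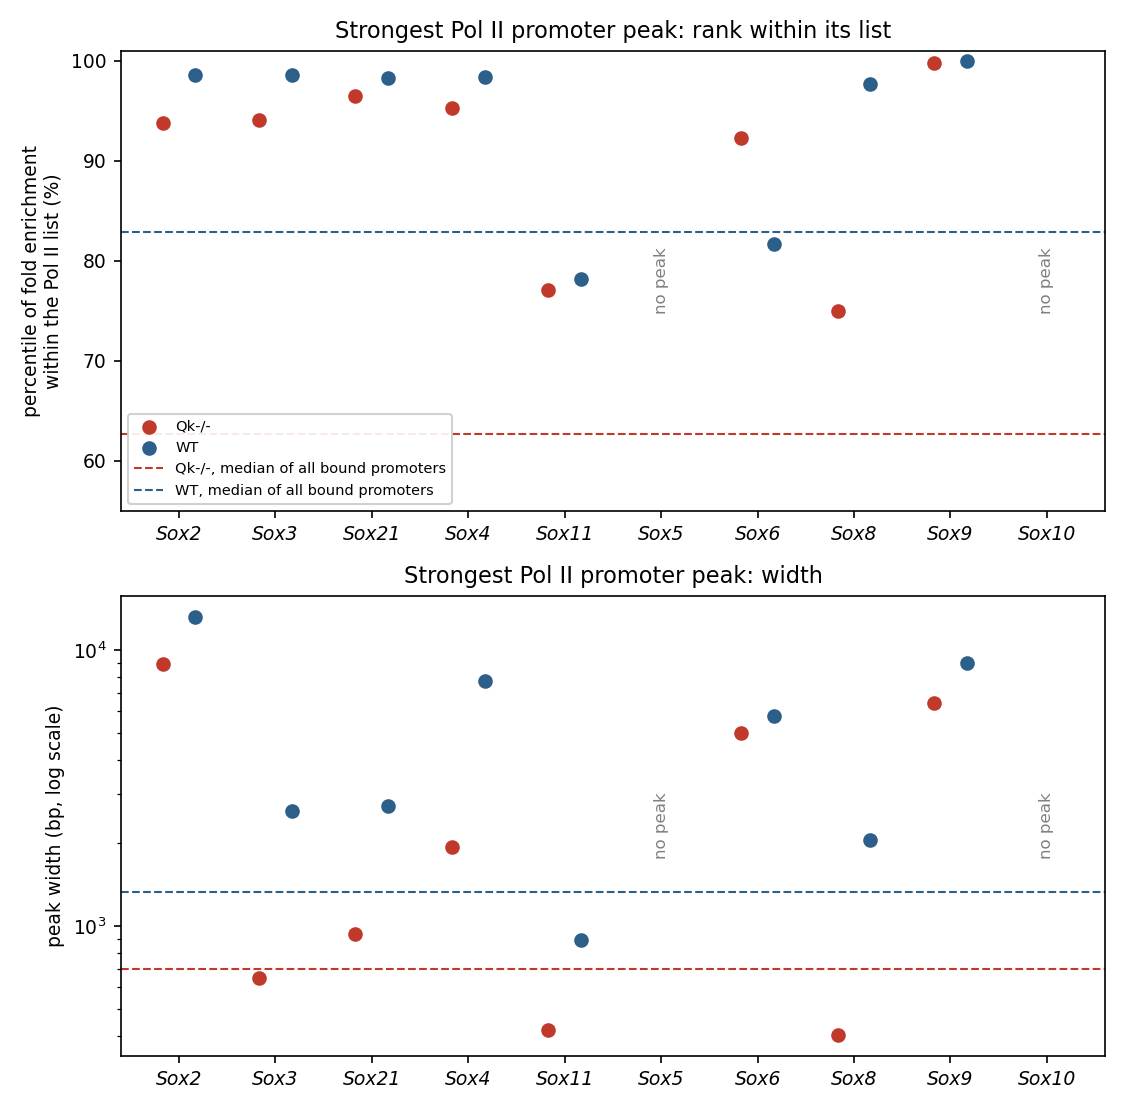
Strongest Pol II promoter peak of each *Sox* gene in *Qk*-/- (red) and WT (blue) cells, 1 library each. The upper panel gives the percentile of its fold enrichment within its own list and the lower panel its width in bp on a log axis. Dashed lines are medians of all bound protein-coding promoters. *Sox9* is nearest the top in both lists, *Sox8* lies at 75.0 in *Qk*-/- and 97.6 in WT cells, and all 8 peaks are narrower in *Qk*-/- cells.

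The 3 SoxB genes among the 10 all had Pol II promoter peaks in this strongest 10% in both genotypes. Of these 3, only *Sox2* was also among the widest 10% of bound promoters. At *Sox2* (chromosome 3, 34650405 to 34652461, plus strand), a gene of NSCs and pluripotent cells, the Pol II peak was 8920 bp wide in *Qk*-/- cells, the seventh widest of its list, and 13221 bp wide in WT cells, at width rank 33. Its fold enrichment was 21.6 (rank 795 of 12835) in *Qk*-/- and 40.8 (rank 460 of 32280) in WT cells. The summits lay 315 bp (*Qk*-/-) and 366 bp (WT) upstream of the GENCODE TSS, and both were downstream of the RefSeq start. The peak extended over the whole gene and also touched promoters of *Sox2ot*, the overlapping long noncoding transcript, and of *Gm27611*, so that Pol II at these promoters cannot be told apart here. A further region downstream, at *Gm42693* within *Sox2ot*, had a Pol II peak of 9.36-fold and 3762 bp in *Qk*-/- cells and of 18.8-fold and 4404 bp in WT cells.

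*Sox3*, the closest relative of *Sox2*, is a gene without introns on chromosome X (60891366 to 60893430, minus strand). Its strongest Pol II peak was 22.0-fold and 646 bp wide (rank 761) in *Qk*-/- cells and 40.9-fold and 2614 bp wide (rank 457) in WT cells. *Qk*-/- peaks covered 36.7% of the gene and WT peaks 93.8%. The peaks also touched the promoter of *Gm14662*.

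*Sox21* (chromosome 14, 118233232 to 118237030, minus strand) had a promoter peak of 26.1-fold and 936 bp (rank 450) in *Qk*-/- cells and of 39.0-fold and 2714 bp (rank 545) in WT cells, shared with *Gm4675*. A separate Pol II peak near the end of the gene was 19.7-fold (rank 1059) and 1399 bp wide in *Qk*-/- cells and 38.0-fold (rank 594) and 3324 bp wide in WT cells. In WT cells the peaks at both ends of *Sox21* were close in rank.

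The SoxC genes differed from each other. *Sox4* (chromosome 13, 28948919 to 28953713, minus strand) had a promoter peak of 23.6-fold (rank 603) and 1939 bp in *Qk*-/- cells and of 39.6-fold (rank 520) and 7753 bp in WT cells, with summits 54 and 58 bp into the gene. The peaks at *Sox4* covered 37.1% of the gene in *Qk*-/- cells and 100% in WT cells, and another peak lay upstream, 5189 bp from the TSS and 8.51-fold in *Qk*-/- cells and 5211 bp from it and 11.9-fold in WT cells. *Sox11* (chromosome 12, 27334264 to 27342574, minus strand) had a narrower and lower ranked peak, 13.2-fold and 421 bp (rank 2944) in *Qk*-/- cells and 12.9-fold and 891 bp (rank 7044) in WT cells. Pol II peaks covered 1.29% of *Sox11* in *Qk*-/- and 19.1% in WT cells.

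The SoxD genes are far longer. *Sox6* spans 567925 bp on chromosome 7 (115470872 to 116038796, minus strand) and has 6 TSSs in the basic annotation. Its main Pol II peak reached over the second of these TSSs from the 5′ end, with its summit in the intron upstream of it, and was broad in both genotypes, 5016 bp in *Qk*-/- cells (width rank 32) and 5780 bp in WT cells (width rank 290). This peak was 20.1-fold (rank 996 of 12835) in *Qk*-/- and 15.1-fold (rank 5901 of 32280) in WT cells, and *Sox6* was the only 1 of the 8 genes whose percentile was higher in *Qk*-/- cells (92.2) than in WT cells (81.7). The summit lay 1876 bp (*Qk*-/-) and 1786 bp (WT) from the TSS of *Sox6os*, a noncoding gene, so the peak cannot be assigned to *Sox6* alone. WT cells had 8 further Pol II peaks in the body of *Sox6* against 1 in *Qk*-/- cells.

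*Sox5* spans 953553 bp on chromosome 6 (143828425 to 144781977, minus strand). No Pol II peak overlapped its region in *Qk*-/- cells. In WT cells 1 peak of 8.30-fold and 1291 bp (rank 10048) lay at the 5′ end of the gene, from 144781313 to 144782603. The basic annotation has no TSS there, whereas the comprehensive annotation does. With the comprehensive TSSs, an alternative chosen after seeing the data, *Sox5* counted as Pol II-bound in WT cells only.

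The SoxE genes covered the whole range, with the strongest promoter peak of the family at *Sox9* and none at *Sox10*. *Sox9* (chromosome 11, 112782224 to 112787760, plus strand) had a Pol II peak of 56.1-fold (rank 24 of 12835) and 6437 bp in *Qk*-/- cells and of 102-fold (rank 9 of 32280) and 8948 bp in WT cells. *Sox9* was covered by Pol II peaks over 96.3% of its length in *Qk*-/- cells and 100% in WT cells. *Sox8* (chromosome 17, 25565892 to 25570686, minus strand) had a peak of 12.6-fold (rank 3213) and 404 bp in *Qk*-/- cells and of 35.5-fold (rank 761) and 2056 bp in WT cells, with summits 51 and 48 bp into the gene. Coverage of *Sox8* was 5.53% in *Qk*-/- and 74.2% in WT cells, and its percentile in *Qk*-/- minus WT cells, -22.7 points, was the lowest of the 8 genes and near the median of -20.3 over all bound promoters. The antisense-overlapping gene *2810468N07Rik* shares this promoter, and ChIP does not tell strands apart.

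*Sox10* (chromosome 15, 79154908 to 79165240, minus strand) had no Pol II peak within 2 kb of its 2 TSSs in either genotype. Within its body, *Qk*-/- cells had no peak and WT cells had 1 of 272 bp and 3.93-fold, rank 24078 of 32280. The flanks held 2 *Qk*-/- and 8 WT peaks, and both *Qk*-/- peaks were also called in WT cells, at *Micall1* (16.8-fold in *Qk*-/- and 25.3-fold in WT cells) and *Polr2f*, a Pol II subunit gene (15.5-fold in *Qk*-/- and 16.0-fold in WT cells).

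**Figure D2:**
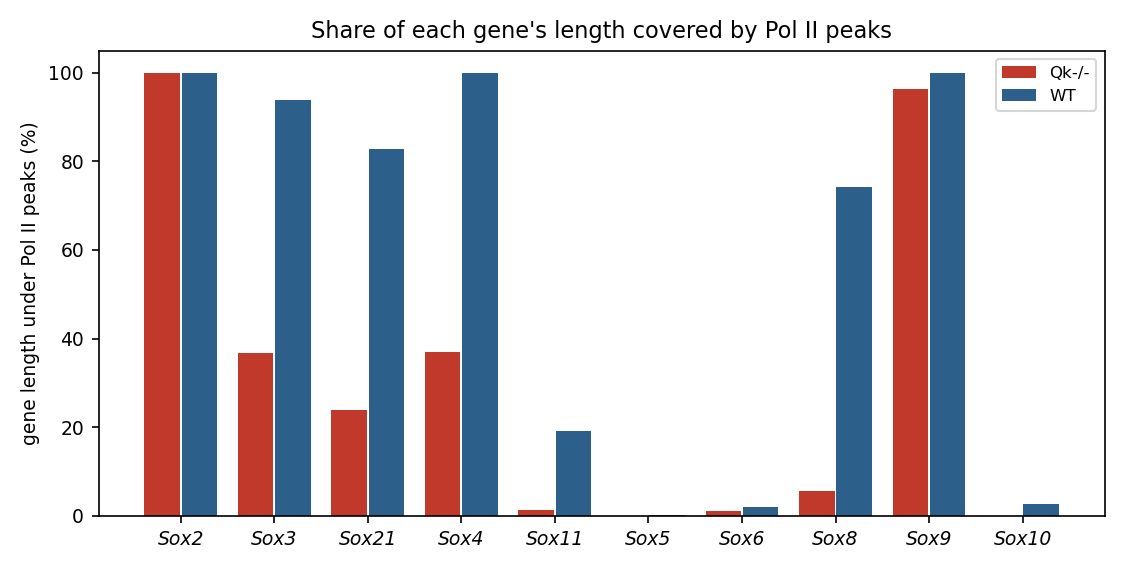
Percentage of each *Sox* gene's length, from start to end in the basic annotation, under Pol II peaks in *Qk*-/- (red) and WT (blue) cells. *Sox2* and *Sox9* are covered over at least 96.3% in both, *Sox8* over 5.53% and 74.2%, and the long genes *Sox5* and *Sox6* over at most 1.99%.

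All 8 promoter peaks were narrower in *Qk*-/- cells, which was also so for 97.1% of the 10177 protein-coding promoters bound in both lists. The ratio of *Qk*-/- to WT width was 0.409 in the median of the 8 genes (0.196 at *Sox8* to 0.868 at *Sox6*) and 0.516 in the median of the 10177. The percentile of the *Sox* peaks in *Qk*-/- cells minus that in WT cells had a median of -2.45 points, against -20.3 points over all promoters. The lists differ in length, so these points describe places within each list only. The *Sox* peaks also had a higher median percentile in the WT list, 98.4 against 82.9 over bound promoters. Promoters of like WT strength were not compared, so whether the difference in points is particular to the *Sox* genes was not tested. Summits lay a median of 15 bp apart between genotypes at the 8 genes and 31 bp apart at all promoters. Over the regions with 50 kb flanks, 24 Pol II peaks were called in *Qk*-/- cells and 48 in WT cells. Every one of the 24 overlapped a WT peak (98.1% of all *Qk*-/- Pol II peaks did), whereas 18 of the 48 WT peaks (37.5%) overlapped a *Qk*-/- peak, against 33.8% of all WT Pol II peaks.

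Qki-5 peaks lay at 5 of the 10 promoters in WT cells and at 1 in *Qk*-/- cells. A Qki-5 peak was called in *Qk*-/- cells at *Sox21* only, where 0.87% of protein-coding genes had one. In WT cells it was called at *Sox2*, *Sox21*, *Sox4*, *Sox6* and *Sox9*, where 19.4% of protein-coding genes had one. These 5 also had Pol II peaks, so that 5 of the 8 Pol II-bound *Sox* promoters carried Qki-5 in WT cells, against 34.6% of all Pol II-bound protein-coding promoters. Of the 5, 1 kept a peak in *Qk*-/- cells, against 4.18% of all WT Qki-5-bound promoters. Counted over genes and 50 kb flanks, a Qki-5 peak was present for 2 of the 10 in *Qk*-/- cells (3.25% of protein-coding genes) and for 8 in WT cells (48.4%), all but *Sox3* and *Sox11*. These counts cover called peaks, and Qki-5 signal below the calling threshold was not analysed here.

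**Figure D3:**
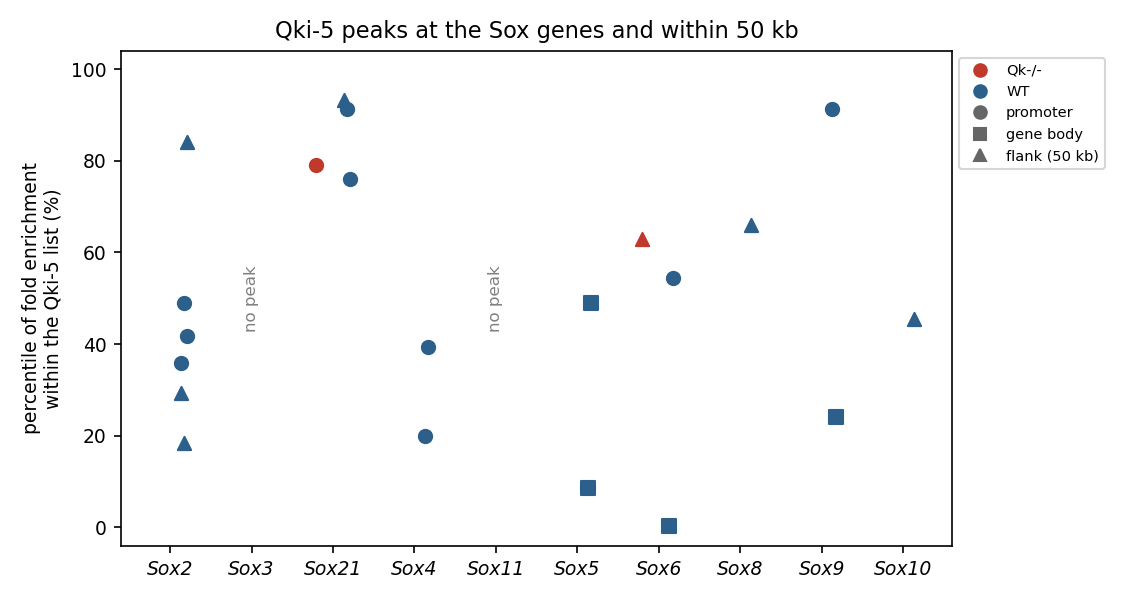
Every Qki-5 peak at the *Sox* genes and within 50 kb of them, as the percentile of its fold enrichment within its own list. Red marks the 2 *Qk*-/- peaks and blue the 19 WT peaks, and circles, squares and triangles mark promoters, gene bodies and flanks. In WT cells, 1 of 2 peaks at *Sox9* and 2 of 3 at *Sox21* reach a percentile above 90, those at *Sox4* lie below 40, and *Sox3* and *Sox11* have none.

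In WT cells the Qki-5 peaks at these promoters were mostly of middling strength, unlike those of Pol II. The strongest at each of the 5 promoters had a median percentile of 54.4 (39.4 to 91.2) within the WT Qki-5 list, and the median over 4258 bound protein-coding promoters was 45.2. Fold values of this list take few distinct levels, and 106 of the 7539 peaks shared the 5.31-fold value of the strongest *Sox2* promoter peak, so small differences in rank carry little.

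*Sox9* and *Sox21* had the strongest WT Qki-5 promoter peaks of the 10 genes, tied at 8.05-fold and rank 661 of 7539. The WT peak at *Sox9* was 687 bp wide, from 112781759 to 112782445 on chromosome 11, and its summit lay 1 bp from the TSS, where no *Qk*-/- peak was called. A second WT peak at *Sox9* had its summit in a coding exon (4.39-fold, rank 5727).

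*Sox21* was the exception among the promoters. Its *Qk*-/- Qki-5 peak was 9.20-fold (rank 90 of 427) and 849 bp wide, from 118234728 to 118235576 on chromosome 14, and its WT Qki-5 peak was 8.05-fold and 803 bp wide, from 118234741 to 118235543. Both summits lay in the coding exon of *Sox21*, 1819 bp (*Qk*-/-) and 2041 bp (WT) from the TSS, nearly the same stretch of DNA being called in both genotypes. What was precipitated there in *Qk*-/- cells was not tested. *Sox21* had 2 further WT peaks without a *Qk*-/- counterpart, at 6.44-fold (rank 1810) in a UTR and at 8.46-fold (rank 503) beyond the end of the gene, that one under the Pol II peak found there in WT cells.

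*Sox2* had the most Qki-5 peaks of the 10 genes, with 0 in *Qk*-/- cells and 6 in WT cells. Of these 6, 3 were at the promoter, at 4.81-fold (rank 4843), 5.31-fold (rank 3855) and 5.06-fold (rank 4395). The first 2 had summits upstream of the GENCODE TSS, that of the 5.31-fold peak lying downstream of the RefSeq start, and the third had its summit in a UTR. The strongest of the 6 was downstream, at 7.05-fold (rank 1203), with its summit 29 bp from the TSS of *Gm42693*. All 6 lay under Pol II peaks called in both genotypes.

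*Sox4* had no Qki-5 peak in *Qk*-/- cells and 2 in WT cells. The stronger (5.01-fold, rank 4566, 348 bp) had its summit 6 bp from the TSS of *Sox4*, over the stretch with 4 CCAAT boxes printed above, and the weaker (4.24-fold, rank 6042) lay in the coding exon. At *Sox6* the WT promoter peak was 5.53-fold (rank 3442), under the broad Pol II peak and with its summit 946 bp from the TSS of *Sox6os*, and it lay outside a promoter window of 1 kb. *Sox6* also had the other *Qk*-/- Qki-5 peak of the 10 genes, 178 bp wide and 7.96-fold (rank 159 of 427). It lay within *1110004F10Rik* upstream of *Sox6*, where no WT Qki-5 peak and no Pol II peak of either genotype was called.

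*Sox5*, *Sox8* and *Sox10* had WT Qki-5 peaks away from the promoters of the basic annotation. At *Sox5* a peak of 5.31-fold (rank 3855) lay at the 5′ end of the gene under the WT Pol II peak, and with comprehensive TSSs it was a promoter peak, which made 6 of the 10 promoters Qki-5-bound in WT cells. Another *Sox5* peak, of 3.63-fold (rank 6895) in an intron, was the only 1 of the 19 WT Qki-5 peaks outside Pol II peaks. The peak near *Sox8* was 5.99-fold (rank 2562) and its nearest TSS that of *AC131323.3*, 678 bp away. The peak near *Sox10* was 5.20-fold (rank 4115) and lay in *Gm10863*, upstream of *Sox10*, 15921 bp from the nearest TSS. In all, 18 of the 19 WT Qki-5 peaks (94.7%) overlapped a WT Pol II peak, against 79.3% of the whole list, and 1 of 19 (5.26%) overlapped a *Qk*-/- Qki-5 peak, against 4.06%.

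**Figure D4:**
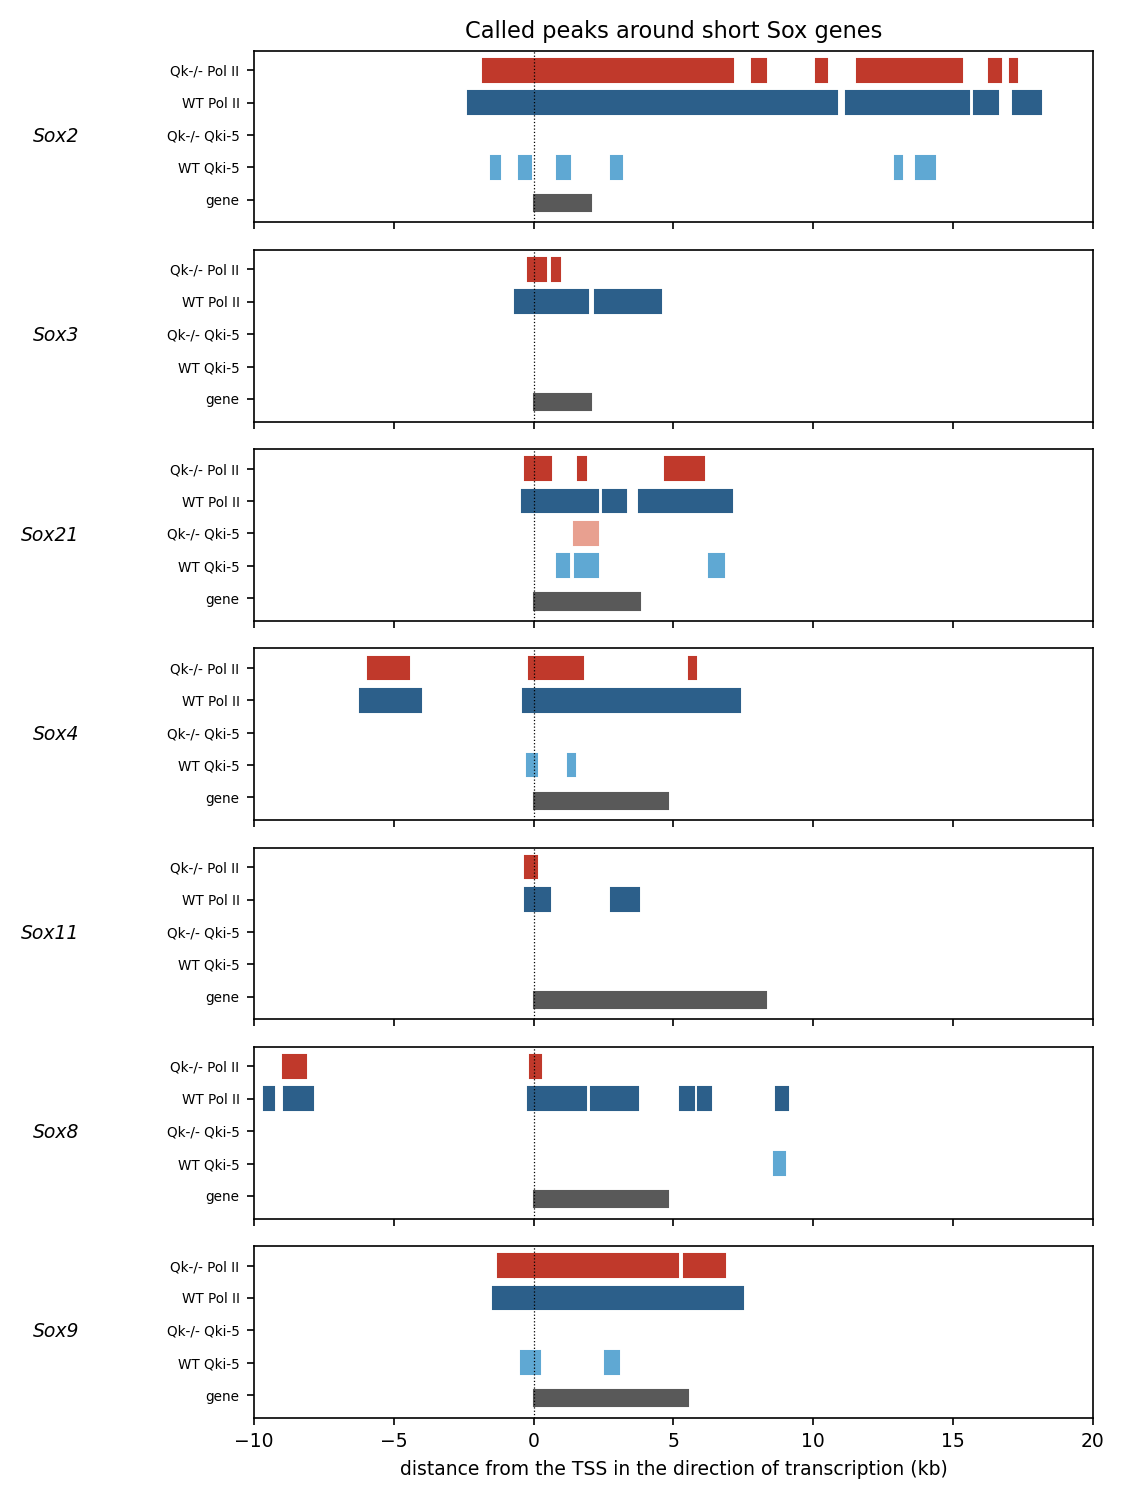
Called peaks from 10 kb upstream to 20 kb downstream of the TSS of the 7 short genes with Pol II peaks. Each bar is a peak, in rows for *Qk*-/- Pol II, WT Pol II, *Qk*-/- Qki-5 and WT Qki-5, above the gene in grey, and the axis is the distance from the TSS in kb along the direction of transcription. Pol II bars are shorter in *Qk*-/- cells at all 7 promoters, and the only *Qk*-/- Qki-5 bar is at *Sox21*.

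The sequence under the WT Qki-5 summits was searched for the same words in windows within 100 bp of the summit, for the 16 peaks near *Sox2*, *Sox4*, *Sox5*, *Sox6*, *Sox8* and *Sox21*. The Sox core occurred 5 times in 4 of the 16 windows (25%), and 22.0% of 7533 windows of the whole list held it, so the share at the *Sox* genes was close to that of the list. These 4 windows were the flank peaks of *Sox2*, *Sox8* and *Sox21* and the 5′ peak of *Sox5*, and no promoter window among the 16 held the core. The WT Qki-5 peaks of *Sox9* and *Sox10* were not searched, because the search was limited to genes with a matched RefSeq upstream sequence. At the *Sox4* TSS the window overlapped the stretch printed above and held 3 CCAAT boxes and 1 ACTAAC. At least 1 CCAAT was found in 19.4% of all windows, and ACTAAC in 2.87%. Within 50 bp of that summit, 2 CCAAT boxes and no ACTAAC were left, and the other *Sox4* window held neither word.

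No Srebp2 peak was called within the genes or their 50 kb flanks in either genotype. At promoters the counts were 0 of 10 in *Qk*-/- cells, where 0.118% of protein-coding genes had a peak, and 0 of 10 in WT cells, where 0.292% had one. With so few Srebp2 peaks in the lists, these counts of 0 say little about the *Sox* genes.

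With both sets named when earlier results of these data were known, the other members of the *Sox* family served as a comparison. Of 10 such genes, 1 had a Pol II promoter peak in *Qk*-/- cells, *Sox12* (17.1-fold, rank 1618), and 3 had one in WT cells, *Sox12* (28.1-fold, rank 1598), *Sox13* and *Sox15*. Over all protein-coding genes, 46.5% had one in *Qk*-/- and 54.1% in WT cells. A Qki-5 peak was called at the promoter of *Sox1* in *Qk*-/- cells (6.30-fold, rank 276 of 427), where 0.87% of protein-coding genes had one. In WT cells such peaks were called at *Sox1* (8.65-fold, rank 441 of 7539) and *Sox12* (7.54-fold, rank 899), where 19.4% of protein-coding genes had one. *Sox1*, a SoxB1 gene of neural progenitors, thus had a Qki-5 promoter peak in both genotypes without a Pol II promoter peak in either. What was precipitated at *Sox1* in *Qk*-/- cells was not tested.

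Genes for partners and regulators of Sox proteins were mostly occupied by Pol II, 19 of 23 in *Qk*-/- cells and 20 in WT cells. Over all protein-coding genes the shares were 46.5% in *Qk*-/- and 54.1% in WT cells. A Qki-5 peak was called at 2 of the 23 in *Qk*-/- cells, *Olig2* and *Pou3f3*, where 0.87% of protein-coding genes had one. In WT cells it was called at 15, where 19.4% of protein-coding genes had one. What was precipitated at *Olig2* and *Pou3f3* in *Qk*-/- cells was not tested. *Olig2*, which specifies oligodendrocytes together with Sox10, had a Pol II peak of 4.29-fold (rank 11955 of 12835) and 223 bp in *Qk*-/- cells and of 25.1-fold (rank 2209 of 32280) and 11143 bp in WT cells. Its Qki-5 peak was 10.3-fold (rank 57 of 427) in *Qk*-/- cells and 3.53-fold (rank 7038 of 7539) in WT cells, over nearly the same stretch. *Nkx2-2*, another oligodendrocyte factor, had Pol II in WT cells only (9.20-fold, rank 9274). *Myrf*, the myelin regulator that acts with Sox10, and *Nkx6-2* and *Zfp488* had Pol II in neither.

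Markers of the cell types that the cultures could hold were examined beside *Sox10*. Of 8 markers of mature oligodendrocytes, 1 had a Pol II promoter peak in *Qk*-/- cells and 1 in WT cells, *Cnp* in each case (18.4-fold, rank 1270 in *Qk*-/- and 33.4-fold, rank 939 in WT cells). Among defining myelin genes, *Mbp*, *Mag*, *Mog*, *Mobp*, *Ermn* and *Opalin* had none in either. Pol II peaks were at 1 of 5 precursor markers in *Qk*-/- cells (*Cspg4*) and 2 in WT cells (*Pdgfra* and *Cspg4*), at 4 of 5 NSC markers in *Qk*-/- and 5 in WT cells, at 6 of 8 astrocyte markers in each, at 1 of 7 neuron markers in *Qk*-/- and 2 in WT cells, and at 0 of 5 microglia markers in each. Over all protein-coding genes, 46.5% had a Pol II promoter peak in *Qk*-/- and 54.1% in WT cells. With lists this short, a count such as 2 of 5 lies near that share. The Pol II lists thus hold few peaks at the listed markers of mature oligodendrocytes. The part that the makeup of the cultures has in the values of the *Sox* genes was not tested.

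Genes with the pattern most like that of *Sox2* and *Sox9* were sought among 21931 protein-coding genes outside the family, by the distance between percentiles in the 4 Pol II and Qki-5 lists. Nearest to *Sox2* were *Hnrnpab*, an RNA-binding protein (0.489 percentile points), *Slc16a1*, a lactate transporter (0.708), and *Dusp1*, a phosphatase (0.878). Each of these shares with *Sox2* the WT Qki-5 rank 3855, at which 106 peaks are tied, and the lack of a *Qk*-/- Qki-5 promoter peak. Their distances from *Sox2* thus come from the Pol II lists alone. Nearest to *Sox9* were *Polr2a*, the largest Pol II subunit (0.897), and *Calm2*, a calmodulin (1.06). *Sox10*, with no promoter peak in the 4 lists, shared this with 9879 of the 21931 genes, so none is named.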

How the data were processed

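ChIP-seq of Pol II, Qki-5 and Srebp2 was performed in *Qk*-/- and WT oligodendrocytes differentiated from mouse NSCs, with 1 library for each antibody and genotype. Per the methods, reads were trimmed with Trim Galore, aligned with Bowtie2 and freed of duplicates with SAMtools, and peaks were called with MACS2 at a q-value of 0.05 against input, all on mm10. The submitters' processing notes list MACS2 2.1.2 and bcl2fastq too, but Bowtie 1.2.2 as the aligner. Fold enrichment, as deposited, is a ratio of the pileup at a summit to the background around it. The −log10 p and −log10 q values deposited by the authors are those of MACS2 at the summit, and the deposited score equals 10 times the −log10 q, as checked for all peaks. Read totals are not in the lists, so depth is unknown, and values were ranked within a list only. Peak width and the number of peaks can follow depth.

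Peaks were joined to genes of the GENCODE M21 basic annotation (overlap of at least 1 bp, promoters within 2000 bp of a TSS, flanks of 50 kb) in Python 3.11.15 with numpy 2.4.6 and pandas 2.3.3. A promoter with more than 1 peak in a list is given by its strongest. Words were searched in RefSeq upstream sequences and in the genome with pysam 0.24.0, and figures were drawn with matplotlib 3.10.9. The code was tested on simulated data. No test was made between genotypes or over the genes. Named are the 10 *Sox* genes, genes of the lists, genes that share a peak or are nearest to a Qki-5 peak, and the most similar genes, of which some are not reported here. Members and lists were chosen with earlier results of these data known. Alternative settings were thresholds on q (0.01) and fold enrichment (5), windows of 1 kb and 2.5 kb, flanks of 20 kb and 100 kb, summits inside the region, TSSs of protein-coding transcripts, other ranks, and, chosen after seeing the data, comprehensive TSSs and dropping WT Qki-5 peaks also called in *Qk*-/- cells.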

Additional observations from a re-analysis of the deposited data

How the results depend on the processing

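Of 89 values computed under alternative settings, 80 stayed close to those reported (within 1.5 times for counts) and 9 moved. The 80 include the Srebp2 promoter counts, which were 0 under every setting. A count can also stay the same while its genes change. With promoters of 1 kb, 4 promoters still had Qki-5 in WT but not in *Qk*-/- cells, with *Sox21* in place of *Sox6*. With a fold enrichment of at least 5, the regions held 29 WT Pol II peaks and 12 WT Qki-5 peaks. With promoters of 1 kb, 0 genes had a *Qk*-/- Qki-5 promoter peak, because the *Sox21* peak lies farther from the TSS, and with flanks of 20 kb 1 *Qk*-/- Qki-5 peak was left. Promoters with Pol II in WT but not in *Qk*-/- cells numbered 1 when the summit had to be inside the promoter (*Sox6*) and 1 with comprehensive TSSs (*Sox5*). Ranked by −log10 q, the median percentile was 92.8 in the *Qk*-/- and 98.0 in the WT Pol II list. The Sox core occurred 3 times within 50 bp of the Qki-5 summits. When WT Qki-5 peaks also called in *Qk*-/- cells were dropped, 5 promoters were still bound in WT cells. No paired analysis was possible because there is 1 library for each antibody and genotype, and no replicate could be left out. Counting error, depth and signal below the calling threshold cannot be given from peak lists.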
